A study of Mus musculus with 42 samples.

Results

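Egr1, Egr2, Egr3, Ier2, Ier3, Ier5, Klf2, Klf4 and Klf6 are early response genes of macrophages, taken by symbol as 9 of the 21911 protein-coding genes of the mouse annotation. All 9 had enough signal to be tested in every comparison below. Their RNA polymerase II (Pol II) occupancy and the histone mark H3K27ac at their starts were measured by ChIP-seq in bone marrow-derived macrophages (BMDMs) from male C57Bl6/J mice aged 6 to 12 weeks. The BMDMs were either wild type (WT) or deficient in Nur77 (KO), the nuclear receptor encoded by Nr4a1, and were sampled untreated (0 h) or after 1 h or 18 h with lipopolysaccharide (LPS) at 100 ng/ml. Each of the 6 groups had 3 libraries per antibody and 1 input library, 42 libraries in all. Every culture, controls included, was grown from bone marrow in L929-conditioned medium. Per the study's methods Nr4a1 was removed in the whole body with CMV-Cre and the colony was then kept without Cre, whereas the label of the KO libraries reads cre, so an effect of Cre and an effect of the deletion cannot be told apart from the labels. The study's methods call the ChIP-seq replicates biological, without saying whether each came from its own mouse, so p-values measure the spread between these libraries.

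Immediate-early genes are transcribed within minutes of a stimulus from factors already present in the cell, and many are shut off again soon after. The Egr genes encode zinc-finger transcription factors that bind GC-rich sites, the Klf genes encode Krüppel-like zinc-finger factors that bind GC-rich and CACCC elements, and the Ier genes were named for their rapid induction by growth factors and stress. In macrophages LPS acts through Toll-like receptor 4, and the NF-kB and MAP kinase pathways below it switch on many genes of this class. Paused and elongating Pol II and acetylated H3K27 at a start site are common measures of how active such a gene is.

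RefSeq promoter sequences (GRCm38.p6, 250 bases before to 50 after a start) matched 6 of the 9 genes, with 10 starts. They were searched on both strands for the CArG box (the serum response factor site), the NF-kB site, the Egr site (GCGTGGGCG or GCGGGGGCG), CRE (TGACGTCA), AP-1 (TGAGTCA or TGACTCA), NBRE (AAAGGTCA, the site Nur77 binds as a monomer) and the TATA box (TATAAA). The 4 promoters printed here, 5′ to 3′ with matches in capitals, carry a match and belong to genes that changed in Pol II.
Egr2 start 3, chr10:67537619-67537918, plus strand: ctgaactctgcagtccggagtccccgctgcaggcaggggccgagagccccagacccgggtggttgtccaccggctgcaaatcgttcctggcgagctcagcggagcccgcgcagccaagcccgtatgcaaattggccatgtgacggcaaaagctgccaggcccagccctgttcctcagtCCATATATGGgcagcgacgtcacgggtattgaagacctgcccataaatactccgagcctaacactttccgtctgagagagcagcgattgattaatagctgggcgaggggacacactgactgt
Ier3, chr17:35821463-35821762, plus strand: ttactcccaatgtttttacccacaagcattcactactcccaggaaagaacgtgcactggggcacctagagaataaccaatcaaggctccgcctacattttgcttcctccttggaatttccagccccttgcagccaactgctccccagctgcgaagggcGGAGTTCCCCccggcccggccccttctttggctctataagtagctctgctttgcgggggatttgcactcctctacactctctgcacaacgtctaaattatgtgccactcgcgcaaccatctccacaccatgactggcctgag
Klf2, chr8:72318812-72319111, plus strand: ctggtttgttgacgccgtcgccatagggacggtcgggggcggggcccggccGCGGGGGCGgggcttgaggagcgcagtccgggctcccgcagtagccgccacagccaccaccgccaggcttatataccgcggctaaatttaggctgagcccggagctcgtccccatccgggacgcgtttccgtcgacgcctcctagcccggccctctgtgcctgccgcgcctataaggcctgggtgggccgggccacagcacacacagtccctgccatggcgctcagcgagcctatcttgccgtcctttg
Klf4, chr4:55532426-55532725, minus strand: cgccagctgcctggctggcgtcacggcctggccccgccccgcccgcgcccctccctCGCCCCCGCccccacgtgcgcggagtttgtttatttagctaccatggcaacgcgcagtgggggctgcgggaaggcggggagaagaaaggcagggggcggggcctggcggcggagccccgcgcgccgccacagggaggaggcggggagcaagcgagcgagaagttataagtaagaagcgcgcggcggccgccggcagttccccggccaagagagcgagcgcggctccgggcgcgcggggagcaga
The capitals in Egr2 mark a CArG box, which 4 of its 5 listed starts, some with overlapping windows, held and which 1.63% of the 32851 promoters in the table held. In Ier3 they mark an NF-kB site (8.46% of all promoters), and in Klf2 and Klf4 an Egr site (3.47%). The first Egr2 start held an NF-kB match on each strand, and these matches overlap each other. No NBRE, CRE, AP-1 or TATA match was found in the windows of these genes, against 1.51%, 1.79%, 5.2% and 13.6% of all promoters, and the Ier5 and Klf6 windows held no match to any of the motifs. The TATA box was searched only as TATAAA, so similar letters, such as tatataag in the Ier5 window, were not counted.

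The genes lie apart from each other in the GRCm38 (mm10) assembly, and each is short. Egr1 lies at chr18:34859823-34864984, Egr2 at chr10:67535475-67542188 and Egr3 at chr14:70077203-70082614, all on the plus strand. Ier2 lies at chr8:84661331-84662852 and Ier5 at chr1:155096361-155099636, both on the minus strand, and Ier3 at chr17:35821684-35822923 on the plus strand. Klf2 lies at chr8:72319033-72321656 and Klf6 at chr13:5861482-5870394 on the plus strand, and Klf4 at chr4:55527143-55532466 on the minus strand.

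Values are tags per 10000000 tags of the library, taken from regions that the authors called in each library separately. Pol II tags were summed over the gene body and 500 bp on either side, and H3K27ac tags over 2500 bp on either side of the start, with a region's tags shared by overlap. A value of 0 says that no region was called there, not that no reads fell there. In bulk chromatin a change in fewer cells and a smaller change in every cell cannot be told apart. Changes are log2 differences of (tags + 10) ± SE from limma, which understates the change of low values, and a gene was called where the p adjusted over all genes tested (Benjamini-Hochberg) was under 0.05.

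The libraries held 21.7 to 36.1 M tags for Pol II and 13.5 to 55.4 M tags for H3K27ac. Pol II at Nr4a1, the targeted gene, was 189, 188 and 208 tags in WT and 87.8, 76.1 and 70.2 tags in KO at 0 h, so Pol II remained in part over the locus. At 1 h KO had more (33.5, 39.0 and 36.6) than WT (25.5, 23.0 and 30.4), a difference that was not called (limma adjusted p = 0.093). At 18 h KO was listed at 0. H3K27ac at its start at 0 h was 85.5, 68.5 and 74.4 tags in WT and 84.4, 61.4 and 74.6 in KO, with overlap. All 8 macrophage markers were above 0 in all libraries. Summed Pol II was 23.1 to 97 tags for T cell markers, all from Cd3d, which was above 0 in all libraries. Cd3e and Cd3g were at 0, and Trac was not among the genes counted. Neutrophil markers had 0 to 20.6 tags, all from Ngp (Ly6g, Elane and Mpo at 0). Fibroblast markers had 0 to 6.21 tags, all from Pdgfra (Col1a1, Col1a2 and Col3a1 at 0). H3K27ac was at most 45.6 tags for each of these lists, with Elane the one neutrophil marker above 0. The summed Pol II of the macrophage markers differed between the genotypes without overlap, at 33666 to 35670 tags in WT and 24845 to 25537 in KO at 1 h and at 46312 to 48878 and 39414 to 42594 at 18 h. At 0 h WT had 22548 to 26633 and KO 25433 to 27383. Their summed H3K27ac did not overlap at 18 h, at 7881 to 8123 tags in WT and 5404 to 7291 in KO, and overlapped at 0 h and 1 h. In the Pol II windows the 6 input libraries held 52.5 to 174 tags at Klf6, 13.7 to 62.2 at Ier5, 0 to 42.3 at Egr2 and at most 29.4 at the others. Within groups, Pol II libraries correlated at r of 0.985 to 0.993 over genes. In H3K27ac the KO libraries split within 2 groups, where other groups ran from 0.986 to 0.994. KO 1 h replicate 1 correlated at 0.912 to 0.913 with replicates 2 and 3 of its group, and KO 18 h replicate 1 at 0.914 to 0.915 with its replicates 2 and 3. Against WT of the same time, KO libraries ran from 0.981 to 0.985 at 0 h, KO 1 h replicate 1 from 0.978 to 0.980 and KO 18 h replicates 2 and 3 from 0.979 to 0.983, whereas KO 1 h replicates 2 and 3 ran from 0.904 to 0.906 and KO 18 h replicate 1 from 0.908 to 0.910. The last 3 libraries were also closer to each other across times (0.904 to 0.905) than KO 1 h replicates 2 and 3 were to KO 18 h replicates 2 and 3 (0.861 to 0.865). The labels do not say which libraries are out of line, and whether any were mixed up was not tested. H3K27ac results for KO at 1 h and 18 h are therefore read in 3 ways: with all libraries, without KO replicate 1 at 1 h and 18 h, and with replicate 1 as the lone KO 1 h library, assumed to vary like the other groups, and KO 18 h replicate 1 left out. The second way rests at 1 h on the pair unlike WT, and the last on the library like WT. KO H3K27ac libraries were also deeper (23.6 to 55.4 M tags) than WT ones (13.5 to 31.1 M tags), and the part of depth in the differences was not tested.

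At 1 h of LPS, Pol II at these genes went in both directions in WT BMDMs. Klf6, Ier3 and Egr2 rose and Egr3, Egr1, Klf4 and Klf2 fell, while Ier2 and Ier5 were not called. That is 3 of 9 higher, where 18.6% of all genes tested were called higher, and 4 of 9 lower, where 68.4% were called lower. The median log2 change was -0.01 over the 9 genes and -0.82 over all genes. In KO BMDMs 3 of 9 rose (Klf6, Ier3 and Ier5, against 20.7% of all genes) and 5 of 9 fell (Klf4, Egr3, Egr1, Egr2 and Ier2, against 62.2%), with an all-gene median of -0.62. Relative to that downward shift, with each library centred on its median, 6 of 9 were called higher in WT (against 37.1% of all genes) and 3 lower (against 38.2%). Klf2 went from -0.23 to 0.56 and Ier2 and Ier5 were called higher. In KO the centred counts were 4 higher (against 36.3%) and 4 lower (against 38.5%), and Ier2 went from -0.43 to 0.14.

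By 18 h the 3 Egr genes had fallen in both genotypes, while Klf6 and Klf4 were above their 0 h level and Klf2 below it. In WT, Ier3, Klf6 and Klf4 were above 0 h (3 of 9, against 33.3% of all genes), of which the Klf4 call is lost with a replicate block. In WT as well, Egr3, Egr2, Egr1, Klf2 and Ier2 were below it (5 of 9, against 33.3%), with Egr3 listed at 0 and tested only through its 0 h libraries. In KO the same genes were called in the same directions, and Ier5 was called higher as well, giving 4 of 9 higher and 5 of 9 lower against 28.1% and 42.2% of all genes. Between 1 h and 18 h 7 of 9 genes changed in WT, where 85.4% of all genes did in either direction. Klf4 was called higher and Egr2, Klf6, Egr3, Egr1, Klf2 and Ier2 lower. Egr3 in WT was tested there only through its 1 h libraries, which lay below the input, so its call had to be downward. In KO 7 of 9 changed, where 79.5% of all genes did, with Klf4 higher and Ier5, Egr2, Klf6, Egr3, Egr1 and Klf2 lower. The median log2 change over this interval was -0.58 over the 9 genes and 0.81 over all genes in WT, and -0.45 and 0.47 in KO. Klf4, the one member called higher, changed by 2.27 ± 0.11 in WT and 2.41 ± 0.11 in KO over the gene body, and by 0.46 in WT and -0.03 in KO at the start site alone.

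**Figure D1:**
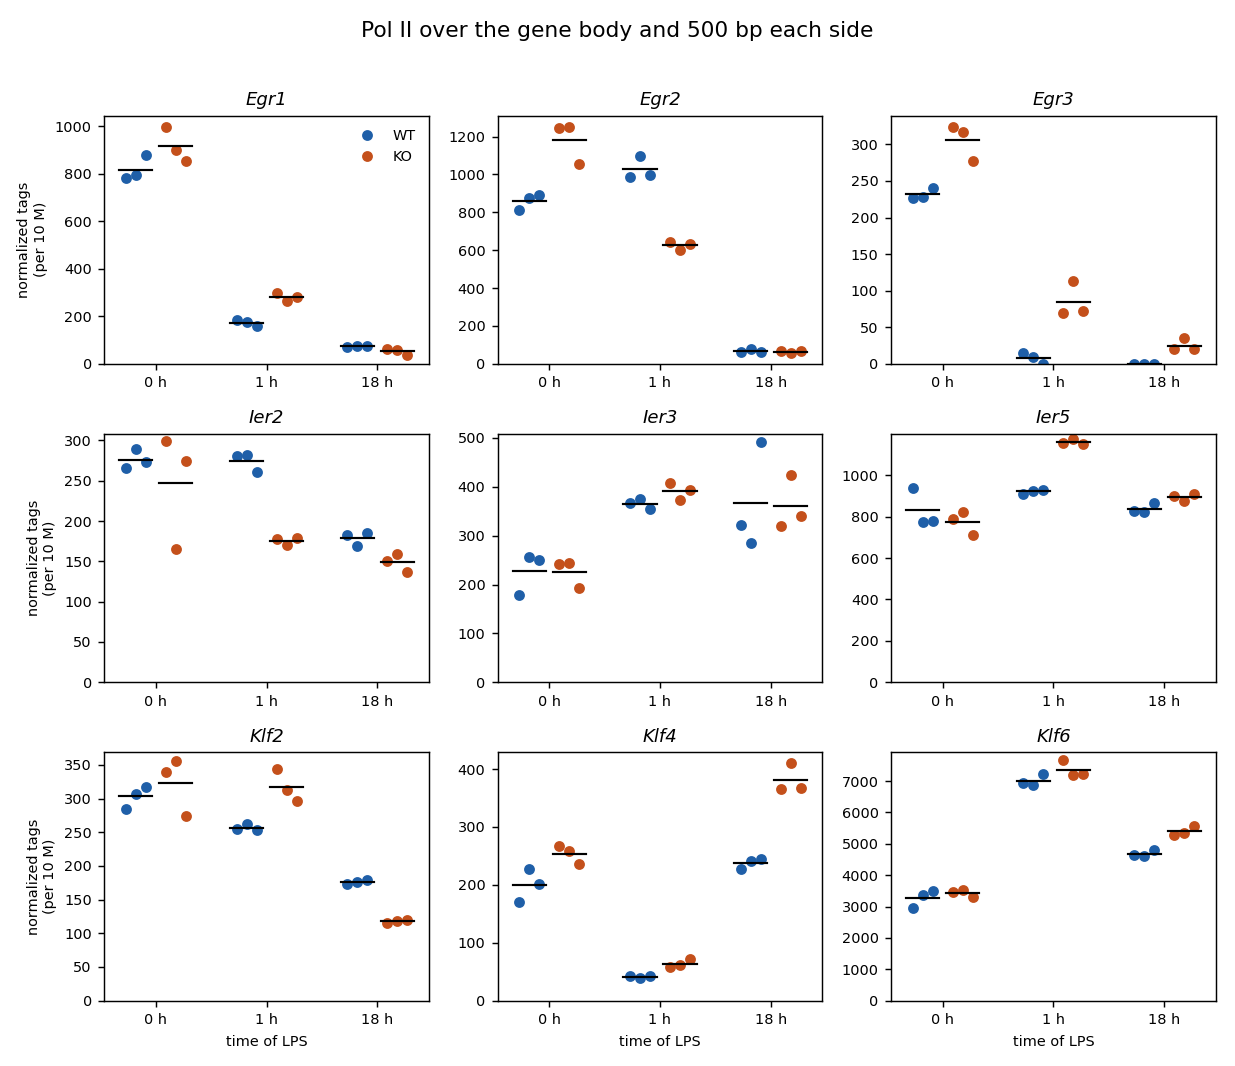
Pol II tags per 10000000 (y axis, a separate scale for each gene, from 0) in each library of the 9 genes by LPS time in hours (x axis), with WT in blue and KO in orange. Points are libraries and bars are means of 3. At Egr2 the WT and KO libraries separate at 1 h (988 to 1095 in WT, 603 to 643 in KO), and at Klf4 they separate at 18 h (227 to 245 in WT, 365 to 410.1 in KO).

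**Figure D2:**
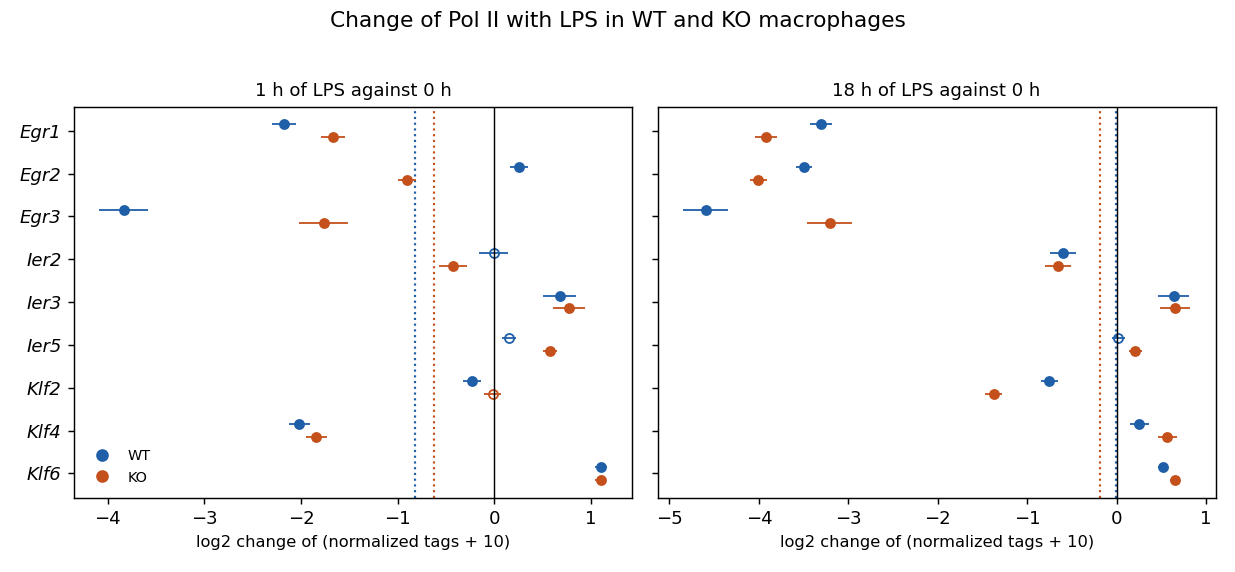
Log2 change in Pol II (tags + 10) against 0 h (x axis) for each gene (y axis), at 1 h and at 18 h of LPS, with WT in blue and KO in orange, bars of 1 SE and filled points for called changes. Dotted lines are the medians of all genes tested in each genotype, -0.82 in WT and -0.62 in KO at 1 h. Klf6, Ier3 and Ier5 lie to the right of the dotted lines at 1 h and Egr1, Egr3 and Klf4 to their left in both genotypes.

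Egr1 encodes a zinc-finger factor that is induced by growth factors, stress and inflammatory signals. Its Pol II in WT was 781, 794 and 880 tags at 0 h, 184, 175 and 160 at 1 h, then 70.9, 76.0 and 73.5 at 18 h. In KO it was 998, 899 and 853 tags at 0 h, 297, 266 and 283 at 1 h, then 61.8, 57.6 and 37.3 at 18 h. All WT libraries at 1 h lay below every WT library at 0 h, and KO lay above WT at 1 h and below it at 18 h with no overlap. The fall at 1 h was -2.18 ± 0.12 in WT (limma adjusted p = 1.6e-11) and -1.67 ± 0.12 in KO (8.6e-10). KO exceeded WT at 1 h by 0.67 ± 0.12 (limma adjusted p = 3.6e-04), or 0.42 with libraries centred on their medians (0.0073). At 18 h KO was below WT by -0.45 ± 0.12 (0.016), which lost its call without KO 18 h replicate 3 (-0.26, 0.080) or WT 18 h replicate 2 (-0.43, 0.052), and with centred libraries (0.059) or at the start site alone (-0.33, 0.43). The longest region over Egr1 shortened from 9.18 to 10.5 kb at 0 h to 6.53 to 7.08 kb at 1 h in WT, while its density dropped from 127 to 143 tags per kb to 29.6 to 30.8. At 18 h in WT that region lay mostly upstream of the gene, from -6.72 to 1.93 kb of the start. Counted at the start site alone, Egr1 in WT rose from 1 h to 18 h by 0.62 where the gene body gave -1.13.

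Egr2, the family member known for myelination and for macrophage and lymphocyte programmes, was called higher at 1 h in WT and lower in KO over the gene body, 2 changes that both reversed under another way of counting, and its called regions differed in length between the genotypes. WT libraries had 814, 873 and 893 Pol II tags at 0 h, 988, 1095 and 999 at 1 h, then 63.6, 77.3 and 61.4 at 18 h. KO libraries had 1243, 1251 and 1057 tags at 0 h, 643, 603 and 631 at 1 h, then 66.4, 57.3 and 69.1 at 18 h. KO libraries were all above WT at 0 h and all below WT at 1 h, and the ranges overlapped at 18 h. The WT change at 1 h was 0.25 ± 0.09 (limma adjusted p = 0.018), was -0.11 at the start site alone, and lost its call without WT 0 h replicate 1 (0.059) or WT 1 h replicate 2 (0.077). For Egr2 the start site alone covers only the first of its listed starts. The others, the printed start 3 among them, lie further into the gene, so these values do not measure Pol II there. The KO change was -0.91 ± 0.09 (7.8e-08), and 1.06 with whole regions counted. The genotype difference was 0.45 ± 0.09 at 0 h (limma adjusted p = 0.0053; 0.13 at the start site alone, 0.87) and -0.71 ± 0.09 at 1 h (1.7e-05). The difference at 1 h depends on how far a region runs. In WT at 1 h the longest region spanned 18.8 to 21.7 kb at 129 to 155 tags per kb, and in KO it spanned 76.2 to 77.1 kb at 81.9 to 85.1 tags per kb, reaching 76.7 kb past the start. Sharing tags by overlap puts a smaller part of so long a region on the gene: with whole regions counted KO was above WT by 1.15, and at the start site alone it differed by -0.31 (adjusted p = 0.34). Ado, a neighbouring gene, lies under the Egr2 region in both genotypes, so their Pol II cannot be told apart in these regions.

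Egr3, which shares the zinc fingers and many targets of Egr1, lost nearly all of its called signal in WT. It had 227, 228 and 241 Pol II tags in WT at 0 h and 14.8, 9.62 and 0 at 1 h, and was listed at 0 in all 3 WT libraries at 18 h. KO libraries had 323, 317 and 277 tags at 0 h, 69.2, 113 and 71.8 at 1 h, then 19.9, 34.6 and 19.7 at 18 h, above the WT libraries at each time with no overlap. The input had 19.1 tags at Egr3 in WT and 21.2 in KO at 1 h, so the WT 1 h values were below the input and the KO ones above it. KO exceeded WT at 1 h by 2.45 ± 0.25 on the log2(tags + 10) scale (limma adjusted p = 8.5e-07), a size set in part by the added 10, since an added 1 gave 3.92. At the start site alone that difference was 1.02 (0.0055). The fall from 0 h in KO was -1.77 ± 0.25 at 1 h (4.7e-06). At 18 h the KO regions were 3.91 to 4.43 kb long and lay mostly before the start, beginning as far as 4.04 kb upstream.

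**Figure D3:**
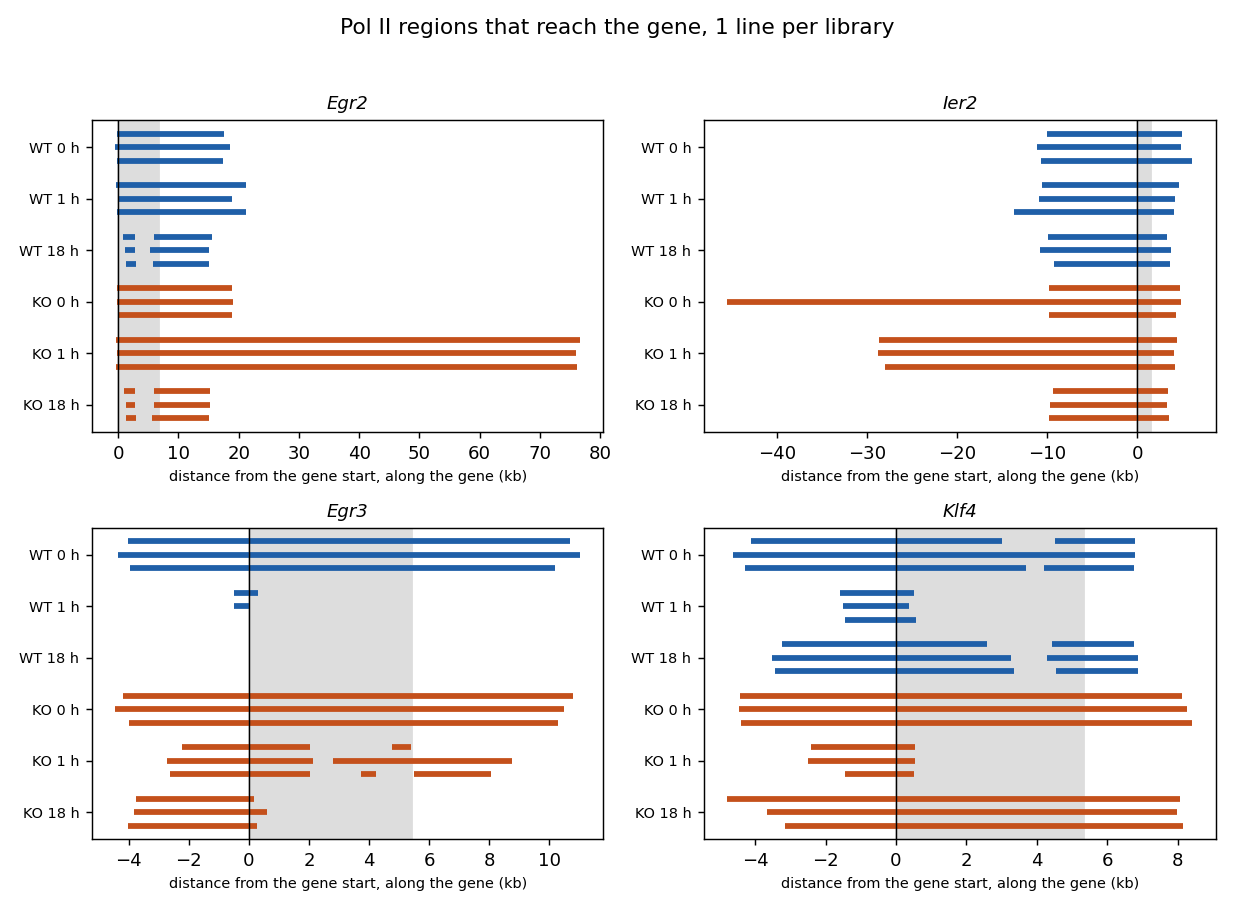
Extent of the called Pol II regions over Egr2, Ier2, Egr3 and Klf4, as distance from the gene start in kb (x axis), with 1 line per library by genotype and LPS time and the gene body in grey. At 1 h the KO regions run to 76.7 kb past the Egr2 start and to 28.8 kb before the Ier2 start, and at Klf4 the regions of both genotypes shrink to between 1.86 and 3.06 kb.

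Of the Ier genes, Ier3 rose at 1 h in both genotypes, Ier5 in KO, and Ier2 fell in KO. Ier2, a nuclear protein gene induced by growth factors, had 280, 281 and 261 tags at 1 h in WT against 266, 289 and 274 at 0 h, and these ranges overlapped. In KO it had 178, 170 and 179 tags at 1 h, all below WT, and 299.8, 166 and 275 at 0 h, where replicate 2 stood low and lay in a region of 50.5 kb over Nacc1, Trmt1, Nfix and Lyl1. The KO to WT difference at 1 h was -0.62 ± 0.15 (limma adjusted p = 0.0027). As at Egr2 this went with longer regions in KO, 32.2 to 33.2 kb against 15.1 to 17.8 kb in WT. Nacc1 lay under the Ier2 region in every library, and Trmt1 in the KO libraries at 1 h as well. With whole regions counted the difference was 0.39 (0.11). The fall in KO at 1 h, -0.43 ± 0.15 (0.013), lost its call without KO 0 h replicate 1 (-0.27) or replicate 3 (-0.33). At 18 h WT libraries had 183, 169 and 186 tags and KO 150.2, 159 and 137, and that difference of -0.25 was not called (adjusted p = 0.24).

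Ier3, linked to survival and NF-kB signalling, rose at 1 h in both genotypes. Its Pol II in WT was 179, 256 and 250.2 tags at 0 h, 366, 376 and 354 at 1 h, then 321, 284 and 492 at 18 h, with the 1 h libraries all above those of 0 h. KO had 241, 243 and 193 tags at 0 h, 407, 373 and 393 at 1 h, then 321, 423 and 341 at 18 h, and KO and WT were not called apart at any time. The rise at 1 h was 0.67 ± 0.17 in WT (limma adjusted p = 0.0013) and 0.77 ± 0.17 in KO (4.4e-04). Counting whole regions turned it to -0.89 in WT and -0.80 in KO, since some 0 h regions ran up to 23.3 kb across Flot1, Tubb5 and Mdc1. Flot1 lay under the Ier3 region of both antibodies in every library, so their signal cannot be told apart in these regions. WT 18 h replicate 3 was the highest library, and without it the WT change at 18 h went from 0.64 to 0.41 (0.025).

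Ier5, an immediate-early gene tied to the heat shock response, had 909.8, 926 and 931 Pol II tags at 1 h in WT against 938, 775 and 780.1 at 0 h, with overlap. In KO it went from 789.7, 821 and 713 tags to 1155, 1176 and 1149, with all 1 h libraries above those of 0 h and above those of WT. The rise in KO was 0.58 ± 0.07 (limma adjusted p = 7.9e-07) and the WT change was 0.15 (0.053). KO exceeded WT at 1 h by 0.33 ± 0.07 (0.0017), but only by 0.08 (0.58) with libraries centred on their medians, the all-gene median difference at 1 h being 0.24. By 18 h WT had 826, 823 and 866 tags and KO 902, 874 and 911, a difference of 0.09 that was not called (0.38), and the KO rise from 0 h, 0.21 (0.015), lost its call without KO 0 h replicate 3 (0.15, 0.078).

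Klf6, a zinc-finger factor linked to inflammatory macrophage activation, had the highest Pol II per kb of the 9 genes in every group. WT libraries had 2942, 3369 and 3498 tags at 0 h, 6935, 6885 and 7231 at 1 h, then 4647, 4599 and 4795 at 18 h, rising and partly returning with no overlap between times. KO libraries had 3465, 3528 and 3291 tags at 0 h, 7674, 7199.7 and 7221 at 1 h, then 5275, 5331 and 5572 at 18 h. The rise at 1 h was 1.10 ± 0.06 in WT (limma adjusted p = 4.3e-12) and 1.10 ± 0.06 in KO (5.2e-12), and its regions kept a length of 16.9 to 18.6 kb throughout. KO was higher at 18 h by 0.20 ± 0.06 (0.016), a call that was lost without KO 18 h replicate 3 (0.075), WT 18 h replicate 1 (0.051) or WT 18 h replicate 2 (0.060), and at the start site alone (0.088).

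Klf4, linked to alternative macrophage activation and to reprogramming, dropped at 1 h and came back. In WT it had 170.5, 227 and 201 Pol II tags at 0 h, 43.4, 38.6 and 42.3 at 1 h, then 227, 242 and 245 at 18 h. In KO it had 267, 259 and 237 tags at 0 h, 57.4, 61.4 and 72.4 at 1 h, then 365, 410.1 and 367 at 18 h, and no KO library overlapped WT at any of the 3 times. KO exceeded WT by 0.52 ± 0.11 at 1 h (limma adjusted p = 0.0011) and by 0.66 ± 0.11 at 18 h (2.8e-04), while the 0.34 at 0 h was not called (0.069). The fall at 1 h, -2.02 ± 0.11 in WT (7.2e-12) and -1.84 ± 0.11 in KO (3.0e-11), lies in the gene body: at the start site alone the changes were 0.01 and 0.51. The longest region shrank in WT from 7.12 to 11.4 kb at 0 h to 1.86 to 2.08 kb at 1 h with a density of 35.9 to 42.7 and 40.0 to 44.4 tags per kb. The excess in KO at 18 h also lies outside the start site, where the difference was 0.01, and KO regions were 11.3 to 12.9 kb long at that time against 5.79 to 6.8 kb in WT. In WT the change from 0 h to 18 h was only 0.25 ± 0.11 (0.049), a call lost without any 1 of 13 of the 18 libraries and with a replicate block (adjusted p = 0.056).

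Klf2, which restrains inflammatory activation of monocytes and endothelium, declined with LPS. WT libraries had 285, 307 and 318 Pol II tags at 0 h, 254, 262 and 253 at 1 h, then 174, 176 and 178 at 18 h, in steps that did not overlap. KO libraries had 340.1, 356 and 274 tags at 0 h, 344, 312 and 297 at 1 h, then 115, 119 and 119.6 at 18 h, above WT at 1 h and below it at 18 h. The change from 0 h to 18 h was -0.75 ± 0.09 in WT (limma adjusted p = 1.3e-06) and -1.38 ± 0.09 in KO. KO was lower at 18 h by -0.54 ± 0.09 (4.0e-04). The KO excess at 1 h of 0.30 ± 0.09 (0.016) was 0.04 (0.74) with libraries centred on their medians, and it was not called without KO 1 h replicate 1 (0.24, 0.076). The small fall in WT at 1 h, -0.23 ± 0.09 (0.026), lost its call without WT 0 h replicate 2 or 3 or WT 1 h replicate 1 or 3, with adjusted p from 0.057 to 0.083.

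Across the genes, KO against WT gave 1 of 9 higher at 0 h (Egr2, against 4.18% of all genes) and 0 lower (against 2.71%, with 2 members at an unadjusted p under 0.05 in either direction). At 1 h 5 of 9 were higher (Egr3, Egr1, Klf4, Ier5 and Klf2, against 38.1%) and 2 lower (Egr2 and Ier2, against 7.49%). With libraries centred on their medians these counts were 3 higher (Egr3, Egr1 and Klf4, against 15.5%) and 3 lower (Egr2, Ier2 and Klf6, against 21.5%). Klf6 then went from 0.07 (limma adjusted p = 0.33) to -0.18 (0.0059). At 18 h Egr3, Klf4 and Klf6 were higher (3 of 9, against 7.56%) and Klf2 and Egr1 lower (2 of 9, against 13.4%). Egr3 was listed at 0 in every WT library at 18 h and was tested there only through its KO libraries, so its call had to be upward. Whether the LPS response itself differed was tested as the change in KO minus the change in WT. At 1 h it was called for Egr3 (2.07 ± 0.36, limma adjusted p = 8.2e-04) and Ier5 (0.42 ± 0.10, 0.0081) upward and for Egr2 (-1.16 ± 0.13, 1.7e-05) downward, which is 2 of 9 against 14.2% and 1 of 9 against 4.23% of all genes. The Egr3 value was 0.70 (0.27) at the start site alone, the Ier5 value was 0.20 (0.36) with centred libraries, and the Egr2 value turned to 0.60 with whole regions. At 18 h it was called upward for Egr3 (1.39 ± 0.36, limma adjusted p = 0.015; 1 of 9, against 4.85%) and downward for Klf2 (-0.62 ± 0.13, 0.0035), Egr1 (-0.61 ± 0.18, 0.027) and Egr2 (-0.51 ± 0.13, 0.015), 3 of 9 against 9.98%. The size of the Egr3 value at 18 h is set by the added 10, since WT was listed at 0 and an added 1 gave 4.24. The Egr1 value lost its call without any 1 of 4 libraries: KO 0 h replicate 1, WT 0 h replicate 1 and WT 18 h replicates 2 and 3, with adjusted p from 0.051 to 0.070. At 18 h the downward values were not called at the start site alone (Klf2 -0.46, Egr1 -0.44 and Egr2 -0.13), and Egr3 was not called after quantile normalization (1.25, adjusted p = 0.125). The genotypes also differed in the summed Pol II of the macrophage markers at 1 h and 18 h, and its part in these differences was not tested. These differences share their WT and KO libraries at 0 h and are not independent of each other.

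**Figure D4:**
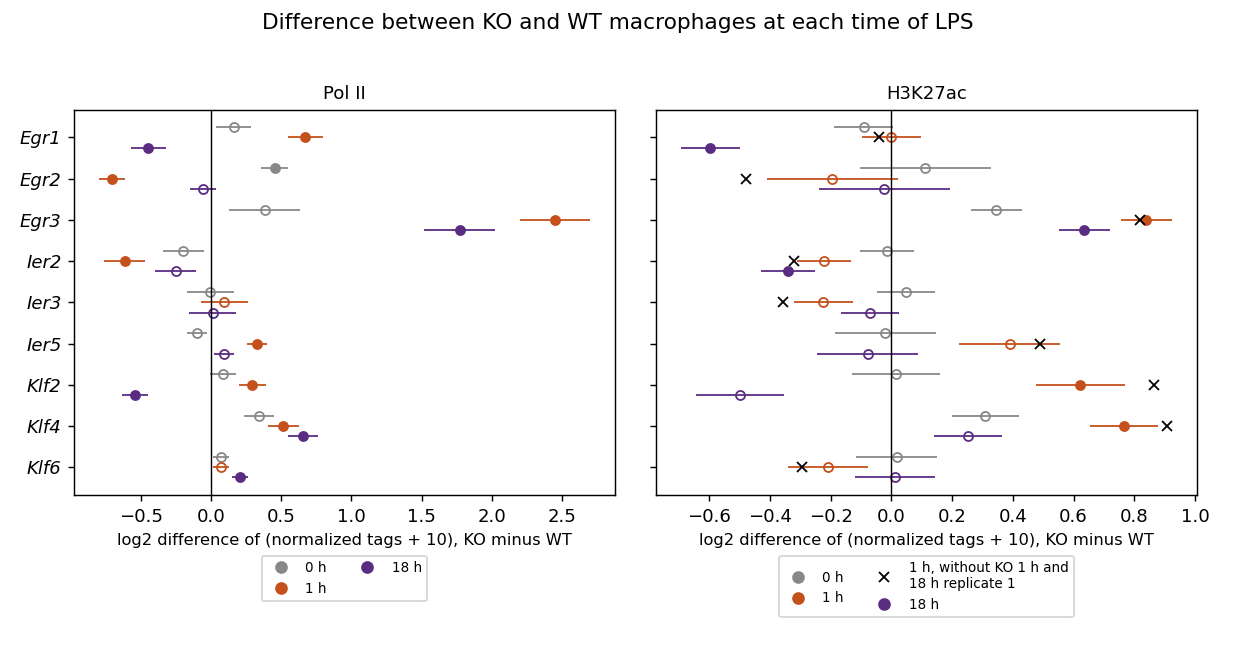
KO minus WT log2 difference (tags + 10; x axis) at 0 h (grey), 1 h (orange) and 18 h (purple) of LPS for each gene (y axis), for Pol II and for H3K27ac, with bars of 1 SE and filled points for called differences. Crosses give H3K27ac at 1 h without replicate 1 of KO 1 h and of KO 18 h. Egr3 lies above 0 in H3K27ac at 1 h (0.84) and 18 h (0.64), and its Pol II values (2.45 and 1.77) are set in part by the added 10, since WT lay below the input or at 0.

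H3K27ac at the starts also went in both directions. In WT at 1 h Ier5, Ier3 and Ier2 rose (3 of 9, against 25.3% of all genes) and Egr3, Klf4, Klf2 and Egr1 fell (4 of 9, against 29.3%). At 18 h in WT Ier3 and Egr1 were above 0 h (2 of 9, against 23.5%) and Egr2, Klf2 and Egr3 below it (3 of 9, against 26.4%). The WT counts also move with the KO libraries, which share the estimate of spread. Without KO replicate 1, 5 of 9 were called higher in WT at 1 h, Egr2 and Klf6 added (against 32.5%), and the same 4 lower (against 38.2%). At 18 h 4 were then higher, Ier5 and Klf6 added (against 32.1%), and the same 3 lower (against 36.1%). With replicate 1 as the lone KO 1 h library the same genes were called in WT as without it. In KO at 1 h only Ier5 was called higher (1 of 9, against 20.4%) and Egr3, Egr1 and Klf4 lower (3 of 9, against 26.6%), and at 18 h Ier3 was higher (1 of 9, against 18.4%) and Egr2, Klf2, Egr3 and Ier2 lower (4 of 9, against 34.2%), where Ier2 lost its call without any 1 of 12 of the 18 libraries. From 1 h to 18 h 5 of 9 changed in WT, where 57.6% of all genes did, with Egr3, Ier3, Egr1 and Klf4 higher and Egr2 lower. In KO 7 of 9 changed, where 44.4% of all genes did, with Ier3, Egr1 and Klf4 higher and Ier5, Egr2, Klf2 and Ier2 lower. Without KO replicate 1, KO had 1 of 9 higher (against 30.2%) and 4 lower (against 32.2%) at 1 h, and 3 higher (against 21.7%) and 4 lower (against 46.4%) at 18 h. With replicate 1 as the lone KO 1 h library, 4 of 9 were higher (against 22.5%) and 4 lower (against 36.2%) at 1 h.

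Between the genotypes, H3K27ac was called at none of the 9 genes at 0 h by limma, where 0.465% of all genes were called higher and 0.305% lower, with Egr3 (0.35) and Klf4 (0.31) at an unadjusted p under 0.05. At 1 h Egr3, Klf4 and Klf2 were higher in KO (3 of 9, against 11.0%) and 0 were lower (against 7.29%), with 6 members in either direction at an unadjusted p under 0.05. At 18 h Egr3 was higher (1 of 9, against 0.950%) and Egr1 and Ier2 lower (2 of 9, against 2.25%). The summed H3K27ac of the macrophage markers was also lower in KO at 18 h, and its part in these differences was not tested. Without KO replicate 1, so that KO at 1 h was the pair unlike WT, the 1 h count became 4 higher (Egr3, Klf4, Klf2 and Ier5) and 4 lower (Egr2, Klf6, Ier3 and Ier2), against 35.6% and 24.2% of all genes. With replicate 1 as the lone KO 1 h library, Egr3 and Klf4 were called higher (2 of 9, against 2.76%) and no member lower (against 4.55%), with 3 members at an unadjusted p under 0.05.

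The higher H3K27ac of KO at Egr3 and Klf4 at 1 h was called in all 3 of these readings. H3K27ac at Egr3 in WT was 208, 201 and 217 tags at 0 h, 108, 98.9 and 88.4 at 1 h, then 129, 129 and 145 at 18 h, and in KO 265, 272 and 266, 189, 179 and 182, and 231, 208 and 205. KO replicate 1 lay with its group at 1 h, and no KO library overlapped WT at any time. The difference was 0.84 ± 0.08 at 1 h (limma adjusted p = 2.4e-05), 0.82 without KO replicate 1, 0.88 with replicate 1 alone, and 0.64 ± 0.09 at 18 h (4.1e-04). In the 1000 bp on either side of the start the 1 h difference was 0.72 and was not called (0.11). The WT 18 h region ran from -3.33 to -0.57 kb and did not reach the start, and there the fall from 0 h was -2.42 in the narrow window against -0.60 in the wide one.

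Klf4 H3K27ac was 170, 180.4 and 194.5 tags in WT and 258, 364 and 334 in KO at 1 h, with KO replicate 1 the lowest of its group but above WT. The difference was 0.77 ± 0.11 (limma adjusted p = 7.7e-04), 0.91 without KO replicate 1 and 0.48 (0.0030) with replicate 1 alone. Klf2 had 237, 223 and 241 tags in WT and 258, 461 and 407 in KO at 1 h, so that replicate 1 sat close to WT and replicates 2 and 3 far above it. Its difference of 0.62 ± 0.15 (limma adjusted p = 0.012) was 0.86 without KO replicate 1, 0.14 (0.31) with replicate 1 alone, and was not called without KO 1 h replicate 2 (0.46, 0.078) or replicate 3 (0.55, 0.069).

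Ier5 had 647, 588 and 626 H3K27ac tags in WT and 708, 962 and 795 in KO at 1 h, with no overlap, and the difference of 0.39 was not called (0.11) except without KO replicate 1 (0.49, 1.5e-04). At 18 h KO replicate 1 had 370 tags where replicates 2 and 3 had 633 and 689. Egr2 had 370.5, 296 and 303 tags in WT at 1 h, and in KO 420.0 in replicate 1 against 223 and 233 in the others, so its difference was -0.19 with all libraries, -0.48 without KO replicate 1 (0.0026) and 0.37 with replicate 1 alone. Klf6 in KO had 1783 tags in replicate 1 and 1562 and 1418 in the others at 1 h, against 1677, 1843 and 1970.1 in WT, so that replicate 1 lay within the WT range and replicates 2 and 3 below it. The difference was -0.21 with all libraries and not called (0.27), -0.29 without KO replicate 1 (0.0076) and -0.03 with replicate 1 alone (0.88).

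At 18 h Egr1 H3K27ac was 325, 301 and 311 tags in WT and 178, 225 and 210 in KO, with no overlap, from 242, 219 and 241 and from 217, 213 and 227 at 0 h. The difference was -0.60 ± 0.10 (limma adjusted p = 0.0027). The longest H3K27ac region in WT was then 7.01 to 7.46 kb and lay mostly upstream of the start, as the Pol II region did. In WT at 0 h the signal upstream was a region of its own in replicates 1 and 3, apart from the region at the start, and no upstream region was called in replicate 2. In KO at 18 h both were joined in replicates 2 and 3, as in WT, and separate in replicate 1. Ier2 was 955, 958 and 963 tags in WT and 682, 813 and 778 in KO at 18 h, and its difference of -0.34 ± 0.09 (0.048) lost its call without any 1 of 15 of the 18 libraries. Without KO replicate 1 the 18 h differences were 0.58 at Egr3, -0.50 at Egr1, -0.27 at Ier2 and -0.41 at Klf2, with limma adjusted p from 1.1e-04 to 0.0076. Klf2 was not called with all libraries (-0.50, 0.073). Ier3 rose to 769, 733 and 765 tags in WT and 725, 744 and 690 in KO at 18 h from 358, 389 and 431 and 407, 407 and 401 at 0 h, all above 0 h in both genotypes, by 0.93 (8.7e-07) and 0.81 (3.5e-06). The difference in LPS response between genotypes was called at none of the 9 genes at 1 h or 18 h by limma (against 0.518% and 0.621% of all genes), with 3 and 4 at an unadjusted p under 0.05, while at 1 h it was called at 8 of 9 without KO replicate 1 (against 47.7%) and at 1 of 9, Egr3, with replicate 1 as the lone KO 1 h library (against 2.15%). At 18 h it was called at 2 of 9, Egr1 and Klf2, both lower, in either of these readings, against 14.4% and 13.6% of all genes.

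**Figure D5:**
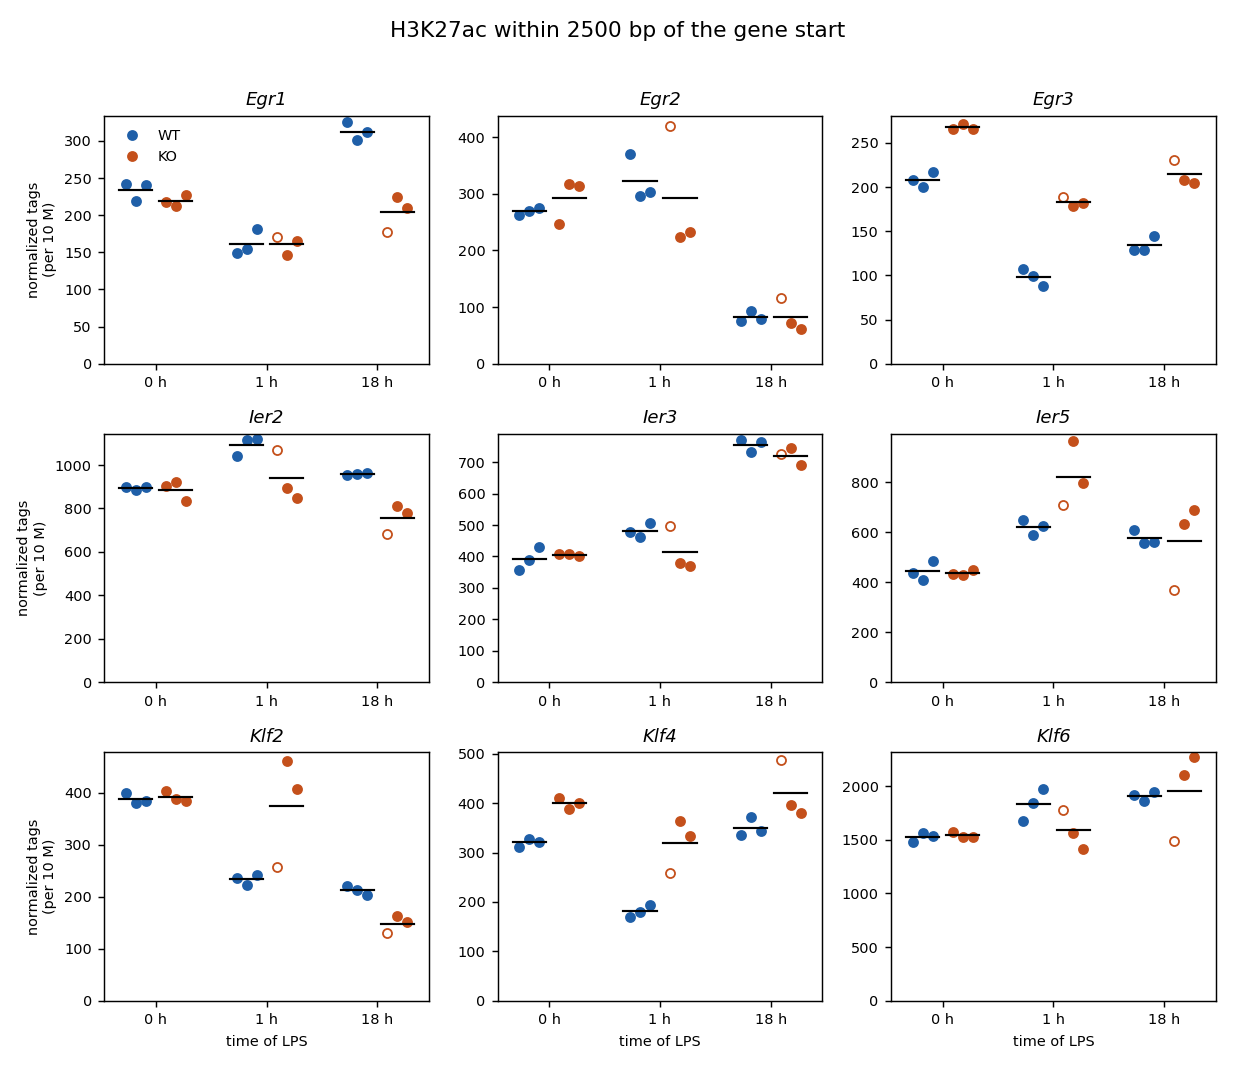
H3K27ac tags per 10000000 over 2500 bp on either side of the start (y axis, a separate scale for each gene, from 0) in each library by LPS time in hours (x axis), with WT in blue and KO in orange. Points are libraries, bars are means of 3, and open circles are KO replicate 1 at 1 h and 18 h. At Klf2 and Egr2 the open circle at 1 h (258 and 420.0) lies apart from the other KO libraries.

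Levels per kb of the counted window allow for gene length. Where a single region covers the window, the level is that region's mean density, so it also depends on region length and on neighbouring genes under it. This holds for Egr2 in KO at 1 h, in regions of 76.2 to 77.1 kb, for Ier2 with Nacc1 and for Ier3 with Flot1. Klf6 led at 0 h in WT with 329.8 ± 29.4 tags per kb (SD, n = 3), followed by Ier5 (194 ± 21.6), Egr1 (133 ± 8.74), Egr2 (111 ± 5.37), Ier2 (109.5 ± 4.71), Ier3 (102 ± 19.2) and Klf2 (83.7 ± 4.65), with Egr3 (36.1 ± 1.21) and Klf4 (31.5 ± 4.45) last. From Egr2 down to Klf2, and between Egr3 and Klf4, the libraries of neighbours in this order overlapped. At 1 h in WT no neighbours overlapped, and the order became Klf6 (708), Ier5 (216), Ier3 (163), Egr2 (133), Ier2 (109), Klf2 (70.8), Egr1 (28.1), Klf4 (6.55) and Egr3 (1.27). In KO at 1 h Klf2 (87.6) stood before Egr2 (81.1), with overlapping libraries, and Egr3 (13.2) before Klf4 (10.1), also overlapping. At 18 h in WT Egr1 (11.9), Egr2 (8.74) and Egr3 (listed at 0) took the last places.

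For each gene called at 1 h in WT, the other genes with the most similar Pol II over the 18 libraries were found by Pearson's r, a description over libraries that share groups and times. For Klf6 these were Arhgef3 (0.995) and Nrp2 (0.994), for Klf4 Gm37240 (0.993) and Lamp2 (0.991), and for Egr1 Stap1 and Rgs2 (0.990 each). For Egr2 they were Ado (0.990), whose signal comes from the same regions, and Spp1 (0.986), and for Egr3 Dpys (0.987) and Pebp1 (0.961), with Egr3 at 0 in 4 libraries. Klf2 was most like Ccr1 (0.978) and Sema4c (0.975). For Ier3 the most similar gene was Fam53c, at a lower r of 0.919.

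Among 25 other immediate-early genes, 15 rose (against 18.6% of all genes) and 8 fell (against 68.4%) in Pol II at 1 h in WT, with a median log2 change of 1.15, the largest being Cxcl1 (6.89, a neutrophil chemokine) and Csrnp1 (4.18) upward and Fosl1 (-2.69) and Nr4a1 (-2.50) downward. In KO 17 rose (against 20.7%) and 8 fell (against 62.2%), with a median of 1.29. KO exceeded WT at 1 h at 11 of them (against 38.1%) and was below at 5 (against 7.49%), with a median of 0.22 beside 0.24 over all genes, and with centred libraries these counts were 3 (against 15.5% of all genes) and 10 (against 21.5%). The largest differences were Nr4a3 (1.22), a receptor of the Nur77 family, and Jun (0.71) upward and Dusp2 (-0.48) and Tnf (-0.38) downward. Of 18 other Egr, Ier and Klf family members and Egr partners, 12 had enough signal at 1 h in WT, of which 2 rose (Klf7 by 2.44 and Klf3 by 1.92) and 9 fell, Ier5l (-2.75) and Klf11 (-1.82) the most, against the same 18.6% and 68.4%. With centred libraries 7 of them rose (against 37.1%) and 3 fell (against 38.2%). KO exceeded WT at 1 h at 6 of 11 of them (against 38.1%), Klf9 (0.90) and Klf11 (0.81) the most. With centred libraries it did so at 2 (against 15.5%) and was below at 3 (against 21.5%).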

How the data were processed

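Per the labels and methods, reads were trimmed with Skewer and aligned to mm10 with HISAT2 2.1.0, and regions were called by HOMER in each library without its input, on tag directories with duplicates removed. The catalogue number of the Pol II antibody differs between the labels and the methods. Windows of 500 bp were joined when less than 1000 bp apart, and the values the authors deposited are a signal, tags per 10000000. The deposited HOMER score was not used. Whole reads could not be recovered, so no count test was run.

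Protein-coding genes came from GENCODE on GRCm38, the files' build. For each antibody the 18 libraries were fitted as 6 group means by limma 3.58.1 (R 4.3.3, trend) on log2(tags + 10), as tested on simulated data. A gene was tested when it was above 0 in 2 or 3 libraries of either group. The "start site alone" and "narrow window" are 500 bp (Pol II) or 1000 bp (H3K27ac) on either side of the annotated gene start. At Egr2 they leave out all but the first listed start. The "whole regions" setting gives a gene all tags of every region it overlaps. Tables and figures used Python 3.11.15 with pandas 2.3.3 and matplotlib 3.10.9.

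In each comparison with all libraries, the called genes among the 9 are named. From the lists of 25 and 18 related genes, the 2 called genes with the largest change in each direction are named. Genes of similar pattern were taken from those above 0 in every library whose windows do not overlap the member, 2 for each. Of these genes 1, and of the marker lists 1, is not reported here. The members and lists were chosen with earlier results of these data known. Alternatives were an added 1, other filters, centring, quantile normalization, both other windows, a common density floor, input subtraction, a replicate block and each library left out. Leaving out KO replicate 1 of H3K27ac at 1 h and 18 h, and using replicate 1 alone for KO 1 h, were chosen after seeing the data.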

Additional observations from a re-analysis of the deposited data

Results flagged for a closer look

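The Pol II response to LPS differed between KO and WT by a test of the difference itself (limma, KO change minus WT change, log2) at Egr2 (-1.16), Egr3 (2.07) and Ier5 (0.42) at 1 h, and at Egr1 (-0.61), Egr2 (-0.51), Egr3 (1.39) and Klf2 (-0.62) at 18 h. These values hold for the gene-body window. Egr2 at 1 h turned to 0.60 with whole regions, Egr3 at 1 h was 0.70 and not called at the start site alone, Ier5 was 0.20 and not called with centred libraries, and Egr1 at 18 h lost its call without any 1 of 4 libraries. At 18 h Egr2 (-0.13) and Klf2 (-0.46) were not called at the start site alone and Egr3 (1.25) not after quantile normalization, with WT listed at 0 at Egr3, so that its size is set by the added 10. For H3K27ac at 18 h, every KO library of Ier2 lay below its 0 h mean and every WT library above it, a difference in change of -0.33 whose limma test did not pass (adjusted p = 0.28).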

How the results depend on the processing

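Of 1120 refits of called changes with 1 choice altered, 1024 kept their direction and call, 74 lost the call and 22 reversed. Of 1888 with 1 library left out, 1815 kept both and 73 lost the call. The cause of the changes was not tested. In the narrow window Pol II reversed at Egr2 in WT at 1 h (-0.11), at Klf4 at 1 h in WT (0.014) and KO (0.51), and from 1 h to 18 h at Klf4 in KO (-0.031) and Egr1 in WT (0.62), as did H3K27ac at Egr3 in WT from 1 h to 18 h (-1.40). With whole regions Pol II reversed at Egr2 at 1 h in KO against WT (1.15), in KO (1.06) and in their interaction (0.60), at Ier2 at 1 h in KO against WT (0.39) and in KO (0.14), at Ier3 in WT at 1 h (-0.89) and KO at 1 h (-0.80) and 18 h (-0.30), and from 1 h to 18 h at Egr1 in WT (0.34) and Ier5 in KO (0.14). Centring reversed Klf2 in WT (0.56) and Ier2 in KO (0.14) at 1 h. Quantile normalization reversed these (0.34 and 0.10), Ier5 in KO at 18 h (-0.015) and Klf6 in KO from 1 h to 18 h (0.017).

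Counts of called members moved as follows, with the share of all genes called in the same fit in brackets. In Pol II, KO against WT went at 0 h from 1 to 2 centred (9.04%), quantile normalized (11.3%) or with whole regions (8.29%) and to 0 in the narrow window (2.69%), at 1 h from 7 to 4 quantile normalized (30.4%) and at 18 h from 5 to 2 in the narrow window (4.80%). The interaction went at 1 h from 3 to 5 with whole regions (21.7%) and at 18 h from 4 to 2 quantile normalized (16.2%) or 1 in the narrow window (2.34%). In H3K27ac, KO against WT went at 0 h from 0 to 1 with no filter (0.429%), whole regions (1.29%) or input subtracted (1.53%), to 2 without KO replicate 1 (10.0%) or with replicate 1 alone at 1 h (9.38%), and at 1 h from 3 to 8 without it. KO at 1 h went from 4 to 2 in the narrow window (39.1%) or 8 with replicate 1 alone. The interaction went at 1 h from 0 to 1 with no filter (0.342%) or with replicate 1 alone and to 8 without it, and at 18 h from 0 to 1 in the narrow window (0.329%) or 2 without KO replicate 1 or with it alone at 1 h.

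Leaving out single libraries, Pol II counts ran from 1 to 2, 6 to 7 and 3 to 6 for KO against WT at 0, 1 and 18 h (3 without KO 18 h replicate 3 or WT 18 h replicate 2), 6 to 8 and 7 to 8 for WT at 1 and 18 h, 7 to 8 and 8 to 9 for KO, 6 to 8 and 7 to 8 from 1 h to 18 h, and 3 to 4 for both interactions. H3K27ac counts ran from 0 to 1, 2 to 7 (7 without KO 1 h replicate 1, 5 without KO 18 h replicate 1) and 2 to 4 for KO against WT, 5 to 8 and 5 to 7 for WT, 3 to 4 and 4 to 6 for KO, 5 to 6 and 5 to 9 from 1 h to 18 h, and 0 to 5 and 0 to 1 for the interactions (5 without KO 1 h replicate 1). In H3K27ac, calls at 1 h in WT were lost at Ier3 without WT 0 h replicate 1 or WT 1 h replicate 3 and at Ier5 without WT 0 h replicate 1 or 2 or WT 1 h replicate 1 or 3, and Klf4 in KO at 1 h was lost without KO 0 h replicate 1 or 3 or KO 1 h replicate 1 (-0.19). Libraries of the same number did not deviate together (r from -0.08 to 0.11 in Pol II and -0.42 to 0.08 in H3K27ac). A replicate block moved no count by over 1.5 times and lost 3 calls: Klf4 Pol II in WT at 18 h (0.25, adjusted p = 0.056) and Ier2 H3K27ac at 18 h in KO against WT (0.074) and in KO (0.059). Signal too weak for a called region is listed at 0, which limits what can be seen at low genes.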
